A study of Caenorhabditis elegans with 4 samples.

Results

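The mitochondrial ribosomal protein genes of Caenorhabditis elegans were taken as all nuclear protein-coding genes whose name starts with mrpl- or mrps- in the WBcel235 annotation. There were 70 such genes among 19973 nuclear protein-coding genes, 41 for the large subunit (mrpl-) and 29 for the small subunit (mrps-). None lay on the X chromosome. Chromosome III carried 22, chromosome I 15, chromosome II 12, chromosome IV 11 and chromosome V 10. The rule uses the gene name and no measured value.

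The assay was chromatin immunoprecipitation with sequencing (ChIP-seq) of EGL-27, a chromatin protein related to the MTA subunits of the NuRD complex. Whole L3 larvae of mixed sex were used, of strain OP177, genotype unc-119(ed3) III; wgIs177, in which the transgene supplies EGL-27 fused at its C terminus to GFP and FLAG. The labels name egl-27 as the target of the antibody and describe 4 biological replicates of this 1 strain, all carrying the transgene. All replicates were called against a shared control alignment, and no second condition was compared. The peaks come from whole animals, and the tissue in which a peak arose is not resolved.

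Mitochondrial ribosomes translate the few respiratory chain subunits that mitochondrial DNA encodes. Their proteins are all made from nuclear genes, translated in the cytosol and imported. Some have a counterpart in the bacterial ribosome, and others were added in the mitochondrial lineage. In C. elegans, knockdown of mrps-5 and of several other genes of this family lengthens life and activates the mitochondrial unfolded protein response.

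A gene counted as having a peak when a summit lay between 1000 bp upstream and 200 bp downstream of its annotated 5′ end. Peaks were ranked by the authors' score within each list, with 1 the strongest. The pooled list held 28056 peaks and background regions. The list thresholded by the irreproducible discovery rate (IDR) was a subset of it, made up of its strongest peaks without a gap. The replicate lists were of unequal length, from 6602 peaks in replicate 2 to 30000 in replicate 1, with 19304 in replicate 3 and 12990 in replicate 4. As many of the strongest peaks of each replicate as the IDR list holds, called top peaks here, were therefore also compared. Read depth is unknown, since the lists give no read numbers. The full lists hold background by design, so a weak entry in them is not evidence of a bound site.

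The summit regions of the members of low pooled rank on chromosomes II to V are shown first. The summits of mrpl-23 and mrpl-15 are described without sequence. Each run covers 50 bp on either side of the pooled summit (101 bases, WBcel235, sequence from RefSeq), written 5′ to 3′ on the strand of the named gene. Capitals mark matches on either strand to any of 3 motifs searched in all windows: GAGAGAG, the E-box CACGTG, and the GATA words AGATAA with its variant AGATAG and TGATAA with its variant TGATAG. They also mark 2 words chosen after the sequences had been seen. One is ATACTCCGAAAT, the longest word that windows of this set of 8 share, and the other is GCGCTCC.
mrps-21 (chrIV:4660427-4660527, minus strand, rank 499): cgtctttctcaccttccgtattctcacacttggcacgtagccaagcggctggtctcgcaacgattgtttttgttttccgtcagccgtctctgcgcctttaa
mrps-7 (chrIV:14767866-14767966, minus strand, rank 691): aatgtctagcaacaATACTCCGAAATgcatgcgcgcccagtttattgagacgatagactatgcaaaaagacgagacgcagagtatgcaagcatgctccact
mrpl-12 (chrIII:10707221-10707321, plus strand, rank 912): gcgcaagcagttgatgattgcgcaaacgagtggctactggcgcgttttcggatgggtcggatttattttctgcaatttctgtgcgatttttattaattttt
mrps-31 (chrIII:3630481-3630581, minus strand, rank 1261): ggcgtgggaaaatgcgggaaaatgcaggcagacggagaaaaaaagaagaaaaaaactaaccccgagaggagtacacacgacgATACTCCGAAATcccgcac
mrpl-49 (chrV:12728395-12728495, plus strand, rank 1457): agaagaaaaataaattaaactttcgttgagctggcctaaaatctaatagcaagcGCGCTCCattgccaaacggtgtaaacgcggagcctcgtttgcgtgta
mrpl-28 (chrII:156057-156157, minus strand, rank 1615): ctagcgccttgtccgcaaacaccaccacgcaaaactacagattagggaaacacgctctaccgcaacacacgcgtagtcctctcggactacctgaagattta
mrpl-55 (chrIV:443774-443874, plus strand, rank 1653): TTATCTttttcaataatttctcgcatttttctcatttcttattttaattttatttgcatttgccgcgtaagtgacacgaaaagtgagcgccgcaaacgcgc
mrps-24 (chrIV:7709853-7709953, plus strand, rank 1953, a summit shared with mrpl-1): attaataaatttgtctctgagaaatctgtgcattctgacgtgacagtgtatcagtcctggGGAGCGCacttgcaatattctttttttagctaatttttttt

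More of the mitochondrial ribosomal protein genes than of all genes had an EGL-27 peak in the pooled list, and few of these peaks reached the IDR list. A pooled summit lay in the window of 42 of the 70 genes, against 37.5% of all nuclear protein-coding genes (7489 of 19973). An IDR summit lay in the window of 3 of the 70 (4.29%), against 2.56% of all genes (512 of 19973). Those 3 genes were mrps-21, mrps-7 and mrpl-23. Among genes with any pooled summit, 7.14% of the members and 6.84% of all genes (512 of 7489) had one in the IDR list, so within the genes that had a peak the members stood near the background. No test was made on the counts of members.

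The number of members with a peak varied widely between replicates. In the full lists, 43 members had a summit in replicate 1, 11 in replicate 2, 31 in replicate 3 and 24 in replicate 4, a mean of 27.2 ± 13.4 (SD, n = 4). As shares these were 61.4%, 15.7%, 44.3% and 34.3% of the members, against 37.9%, 10.3%, 26.7% and 19.6% of all genes in replicates 1 to 4. The members' share was the higher of the pair in each of the 4 lists. Replicate 2, with the shortest list, was the lowest for both.

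A top peak in at least 1 replicate was found at 4 of the 70 members (5.71%), against 5.48% of all genes (1095), so the members stood at the background. Replicate 1 had one at 3 members (mrpl-23, mrpl-15 and mrpl-12), replicate 2 at 1 (mrps-31), replicate 3 at 1 (mrpl-12) and replicate 4 at 0, a mean of 1.25 ± 1.26 (SD, n = 4). The shares were 4.29%, 1.43%, 1.43% and 0% of the members, against 2.32%, 1.75%, 2.01% and 2.13% of all genes. They were above that of all genes in replicate 1 and below it in replicates 2, 3 and 4. A top peak in 2 or more replicates was found at 1 member, mrpl-12, against 1.86% of all genes (372). A top peak in all 4 replicates was found at 0 members, against 0.195% of all genes (39).

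**Figure D1:**
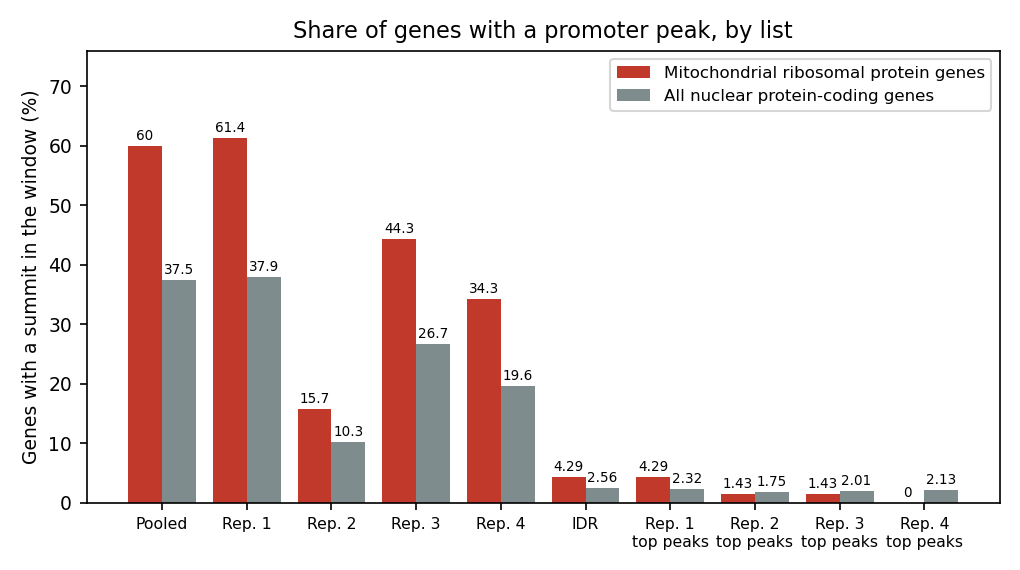
Share of genes with a summit in the promoter window (%, vertical axis) in the pooled list, the 4 full replicate lists, the IDR list and the top peaks of each replicate, bars are the 70 mitochondrial ribosomal protein genes (red) and all 19973 nuclear protein-coding genes (grey), with no error bars because each bar is 1 list. The red bar is the taller in every full list, as with 61.4% against 37.9% in replicate 1, while in the IDR and top lists both bars lie below 5%.

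The excess over all genes built up below the strongest peaks. At pooled rank 400, 0% of the members and 1.24% of all genes had a summit. At rank 2000 it was 15.7% of the members (11 genes) and 5.79% of all genes (1156). At rank 8000 it was 35.7% and 16.4%. Among the genes with a pooled summit, the median rank of the best one was 7068.5 for the 42 members and 9773 for the 7489 genes.

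Related gene families were set beside them without a test. Of 78 cytosolic ribosomal protein genes (rpl- and rps-), 32.1% had an IDR summit and 87.2% a pooled one, with a median rank of 1597.5. Of 38 nuclear respiratory chain genes, 18.4% had an IDR summit and 73.7% a pooled one, with a median rank of 3203. The mitochondrial ribosomal protein genes, with 4.29% and 42 of 70, lay below both families in these shares. The strongest rank in their windows was 499, whereas it was 9 at rpl-3, a cytosolic ribosomal protein gene, and 51 at cox-5A, a cytochrome c oxidase subunit gene.

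**Figure D2:**
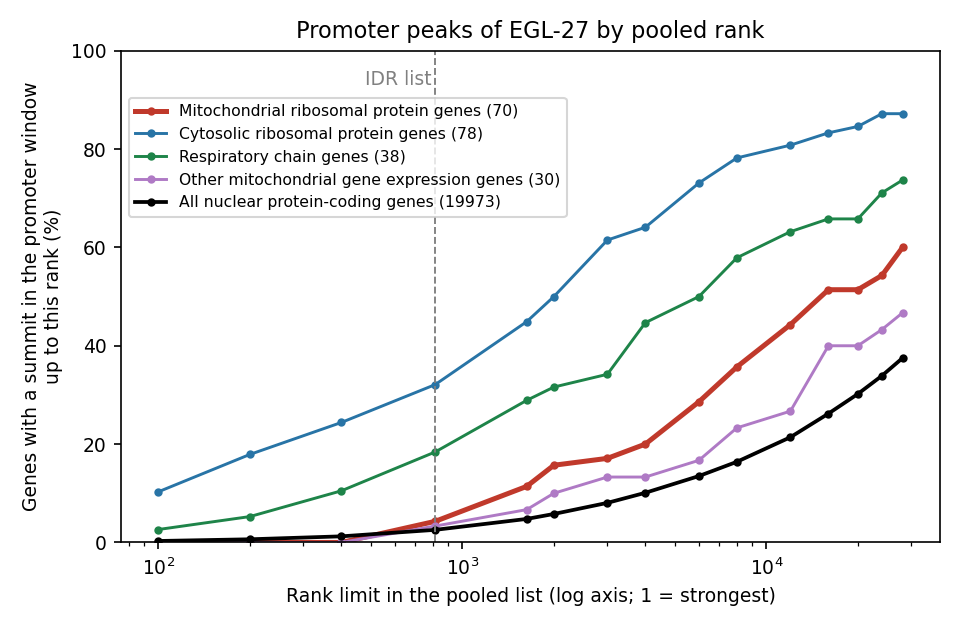
Share of genes (%, vertical axis) with a summit in the promoter window up to a given rank of the pooled list (horizontal log axis, 1 the strongest), for the mitochondrial ribosomal protein genes, 3 other gene lists and all nuclear protein-coding genes. Points are the ranks at which the share was counted and the dashed line is the end of the IDR list. The red line starts at 0%, stands at 4.29% at the dashed line, close to the 2.56% of all genes, and ends below the cytosolic ribosomal protein and respiratory chain genes.

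Other genes of mitochondrial gene expression were counted from a fixed list of 51 names, 30 of them annotated under that name. Of these 30, 1 had an IDR summit (3.33%, against 2.56% of all genes) and 14 a pooled one (46.7%, against 37.5%). The IDR summit belonged to mma-1, related to human LRPPRC (rank 537), 715 bp upstream of its 5′ end and within 200 bp of the snoRNA gene C14C10.8. The next were ears-2, a mitochondrial glutamyl-tRNA synthetase (rank 893, 10 bp upstream), and tufm-2, named for the mitochondrial elongation factor Tu (rank 1865). That last summit was 21 bp from exoc-7. By class, a pooled summit was found at 4 of 9 translation factor genes, 5 of 10 synthetase genes, 4 of 7 genes of transcription and DNA maintenance and 1 of 4 genes of further ribosomal proteins and ribosome assembly.

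Genes of mitochondrial protein quality control and the mitochondrial unfolded protein response numbered 13. Of these, 2 had an IDR summit (15.4%, against 2.56% of all genes) and 10 a pooled one (76.9%, against 37.5%). The 2 were hsp-60, the mitochondrial chaperonin (rank 362, closer to Y22D7AL.10), and phb-2, a prohibitin (rank 744). Next came ubl-5 (rank 2148) and hsp-6 (rank 2161, closer to C37H5.5 and within 200 bp of non-coding RNA genes). The summit of atfs-1, the transcription factor of that response, followed at rank 2568.

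The counts were also split by subunit. A pooled summit lay at 19 of 29 small subunit genes (65.5%) and at 23 of 41 large subunit genes (56.1%). Over all genes the share was 37.5%. IDR summits were at 2 (6.9%) and 1 (2.44%) of them, against 2.56% of all genes. Genes numbered within the bacterial ribosomal protein series (up to 21 in the small and 36 in the large subunit) had a pooled summit in 24 of 41 cases (58.5%). Those numbered beyond it, mostly named for proteins of the mitochondrial ribosome alone, had one in 18 of 29 (62.1%). An IDR summit lay at 3 of the 41 (7.32%) and at 0 of the 29 (0%), against 2.56% of all genes. Counts this small do not separate the 2 kinds. The summits of mrps-21 and mrpl-23, 960 and 953 bp upstream, also lay near the far edge of the window.

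In the small subunit, mrps-21 (WBGene00017924) had the strongest summit in any window. It is named for bacterial S21. The peak (chrIV:4660292-4660661) had rank 499 and its summit lay 960 bp upstream, near the far edge of the window. The nearest 5′ end was that of F29B9.11, 276 bp away, and jmjd-1.2 shared the summit too, so the peak cannot be given to mrps-21. Replicate 1 had a summit at 980 bp with rank 13374 and replicate 3 one at 963 bp with rank 1637, and replicates 2 and 4 had none in the window. Replicate 4 did have a summit 1014 bp upstream, just past the edge of the window and within 200 bp of the pooled one, and there it was a top peak with rank 71. Replicate 2 had none within 200 bp, and in replicates 1 and 3 it was not a top peak.

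The summit of mrps-7 (WBGene00013324), named for the S7 protein that organises the head of the small subunit in bacteria, was the 1 IDR summit close upstream of its own gene. The peak (chrIV:14767731-14768100) had rank 691, with the summit 186 bp upstream in intergenic DNA. The divergent gene Y57G11C.3, whose 5′ end lies 471 bp from that of mrps-7, also held it in its window. In the replicates, the best summit lay 155 bp upstream at rank 2611 in replicate 1, 187 bp at rank 6831 in replicate 4 and 823 bp at rank 7966 in replicate 3. Replicate 2 had none, and none of the 3 was a top peak. Within 200 bp of the pooled summit only replicates 1 and 4 had one.

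At mrps-31 (WBGene00007859), whose human namesake is found only in mitochondrial ribosomes, the pooled summit lay 159 bp upstream at rank 1261 (chrIII:3630346-3630715). It was a top peak in replicate 2 (rank 533, 39 bp upstream) and ranked 1227 in replicate 4 (165 bp upstream). Replicate 3 had a summit 173 bp upstream at rank 14937, beside a better one at the far edge of the window (rank 7706, 983 bp upstream). Replicate 1 had none within 200 bp of the pooled summit, and its best in the window lay downstream of the 5′ end at rank 26896. A summit near the pooled one was thus present in 3 of the 4 replicates and a top peak in 1.

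The pair mrps-24 and mrpl-1 stands head to head, their 5′ ends 344 bp apart, and was the 1 case of a summit shared by 2 members. It was looked at for that reason, after the values were seen. The peak (chrIV:7709718-7710087, rank 1953) had its summit 142 bp upstream of mrps-24 and 202 bp upstream of mrpl-1, a gene named for a large subunit protein. Replicates 1 and 2 had their best summits between the same 5′ ends, at ranks 1107 and 1142, and replicates 3 and 4 had none. The pair does not stand alone: the nearest divergent 5′ end to mrps-24 was that of emc-6, 309 bp away and so between those of the pair. It was nearer to the summit than that of mrpl-1, and emc-6 held the summit in its window as well.

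In the large subunit, mrpl-23 (WBGene00020348), named for a bacterial protein at the exit of the peptide tunnel, had the 1 IDR summit. The peak (chrI:6212653-6213022, rank 711) lay 953 bp upstream, inside an intron of fars-1, the next gene upstream on the same strand. The snoRNA gene T08B2.13, the non-coding RNA gene T08B2.14 and a pseudogene lay within 200 bp. No other member's best pooled summit had a non-coding gene so near. The summit was a top peak in replicate 1 (rank 429, 953 bp upstream). Replicate 3 had a summit 961 bp upstream at rank 2123. Its best in the window lay elsewhere, 745 bp upstream at rank 1067, and not within 200 bp of the pooled one. Replicates 2 and 4 had none in the window.

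The gene mrpl-12 (WBGene00012361) is named for the stalk protein that recruits translation factors in bacteria. It was the 1 member with top peaks in 2 replicates, namely replicate 1 (rank 730, 457 bp upstream) and replicate 3 (rank 474, 558 bp upstream). Replicates 2 and 4 had no summit in the window. The pooled summit (chrIII:10707086-10707455, rank 912) lay 490 bp upstream and just missed the IDR list. The 5′ end of the divergent gene Y39A1A.22 was nearer, at 243 bp.

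At mrpl-15 (WBGene00022373), named for bacterial L15, all 4 replicates had a summit. Its pooled peak (chrI:1435473-1435842, rank 969) had its summit 621 bp upstream, in intergenic DNA with no other gene's window. Replicate 1 ranked it 549 (619 bp upstream), replicate 2 ranked it 2594 (775 bp), replicate 3 ranked it 2964 (784 bp) and replicate 4 ranked it 8701 (656 bp). It was a top peak in replicate 1 alone.

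At mrpl-28 (WBGene00020796), named for bacterial L28, a summit was again present in all 4 replicates. The pooled summit lay 98 bp upstream (chrII:155922-156291, rank 1615), and those of replicates 1 to 4 lay 49, 142, 128 and 104 bp upstream. Their ranks were 14411, 4505, 1547 and 1502. Besides mrpl-15 it was the 1 member with a summit of every replicate within 200 bp of the pooled one, but in none was it a top peak.

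The other members named by the rule were mrpl-49 and mrpl-55, both for proteins found only in mitochondrial ribosomes. At mrpl-49 (WBGene00011247, chrV:12728260-12728629, rank 1457) the summit lay 186 bp upstream, in a region shared with the divergent cytosolic ribosomal protein gene rpl-28. Replicate 1 ranked its best summit 1814 (166 bp upstream) and replicate 4 ranked its own 1995 (221 bp). The best summit of replicate 3 in the window lay elsewhere, 671 bp upstream at rank 2977, and replicate 2 had none. Only replicates 1 and 4 had a summit within 200 bp of the pooled one. At mrpl-55 (WBGene00022045, chrIV:443639-444008, rank 1653) the pooled summit lay 161 bp upstream, and replicates 1, 3 and 4 gave ranks of 1672, 7333 and 12613. No replicate had a top peak at either gene.

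**Figure D3:**
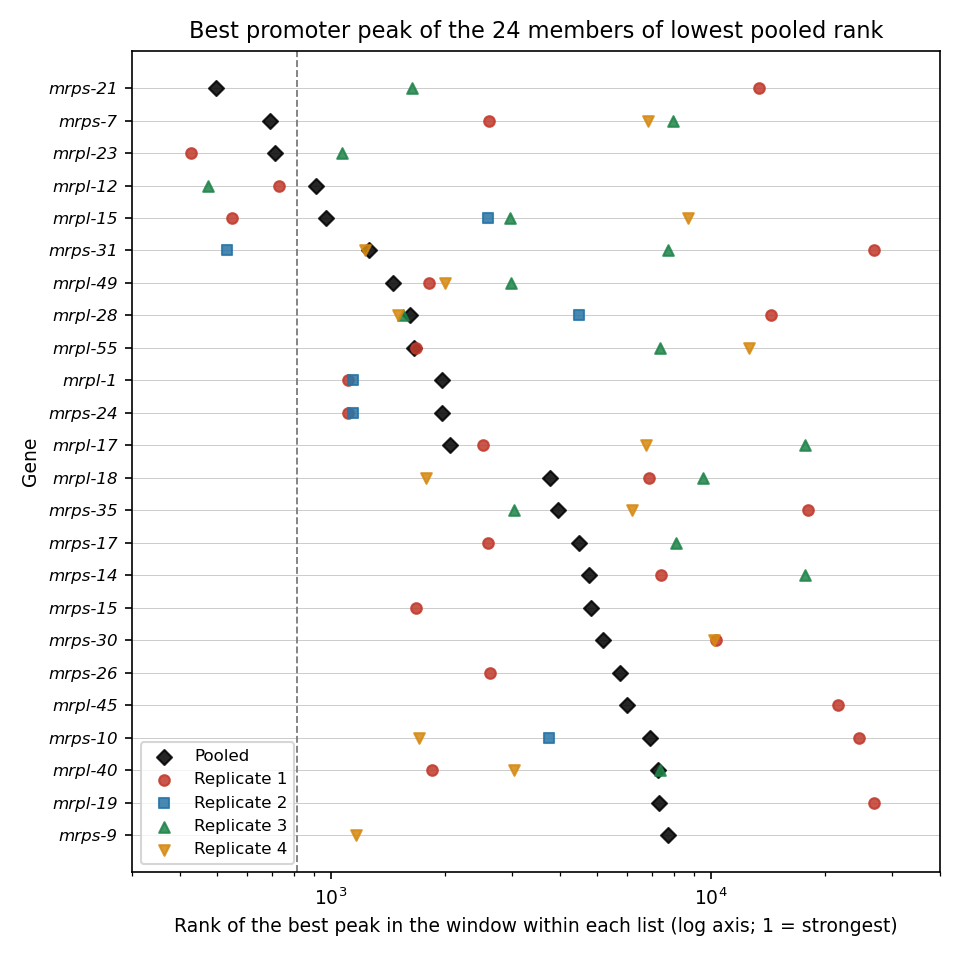
Rank of the best peak in the promoter window (horizontal log axis, 1 the strongest) for the 24 members of lowest pooled rank (vertical axis), in the pooled list (diamonds) and in replicates 1 to 4. A missing symbol means no summit in the window and the dashed line is the end of the IDR list, the limit for a top peak. To the left of the line are 3 pooled summits (mrps-21, mrps-7, mrpl-23) and 5 replicate ones, and the remaining symbols lie to the right of it. Ranks come from lists of unequal length and may belong to different summits of a window, so they are not compared between replicates.

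Just inside the end of the IDR list was mrpl-23 at rank 711, and just outside it were mrpl-12 at 912 and mrpl-15 at 969. The remaining members with a pooled summit ran down to mrps-27 at rank 27399. The gene mrps-5, known for its lifespan phenotype and looked up for that reason, had a summit at rank 21416, which lay 986 bp upstream in an exon of sel-1.

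The 28 members without a pooled summit included 18 with a summit in at least 1 replicate list. In none of the lists was there a summit at 10 members, namely mrpl-4, mrpl-11, mrpl-20, mrpl-22, mrpl-24, mrpl-30, mrpl-48, mrpl-51, mrps-12 and mrps-18.C. They made up 14.3% of the members, against 39.2% of all genes without a summit in the pooled or any replicate list. The remaining 18 were mrpl-2, mrpl-9, mrpl-16, mrpl-34, mrpl-35, mrpl-38, mrpl-39, mrpl-47, mrpl-50, mrpl-53, mrps-2, mrps-6, mrps-18B, mrps-18C, mrps-22, mrps-28, mrps-33 and mrps-34.

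The replicates were also compared at the pooled summits of the 42 members. A replicate summit lay within 200 bp at 31 of them in replicate 1 (73.8%, against 62.9% of all genes with a pooled summit) and at 8 in replicate 2 (19.0%, against 15.6%). It did so at 21 of 42 in replicate 3 (against 40.2%) and at 15 in replicate 4 (35.7%, against 31.1%). In 2 or more replicates this held at 23 of the 42 (54.8%), against 42.7% of all genes with a pooled summit (3197 of 7489). In all 4 it held at 2 (4.76%) and 4.11%. At 1 member, mrpl-21, no replicate had a summit so near. Since the pooled list was called on the same libraries, these shares are not independent of it.

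Most summits lay close to the 5′ end. The median distance of the best pooled summit was 178 bp upstream for the 42 members and 279 bp for the 7489 genes. Within the first 300 bp upstream lay 22 of the 42 (52.4%), against 38.2% for all genes. Downstream of the 5′ end were 6 (14.3%) and 14.1%. The 2 IDR summits at mrps-21 and mrpl-23 were among the 14 that lay further upstream than 300 bp. The best summits of 25 of the 42 members lay in intergenic DNA, 14 in an exon and 3 in an intron of a protein-coding gene. The intergenic summit shared by mrps-24 and mrpl-1 was counted for each of them. At 10 of the 42 the nearest 5′ end was that of another gene. These places were not counted over all genes, so how usual they are is not known.

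**Figure D4:**
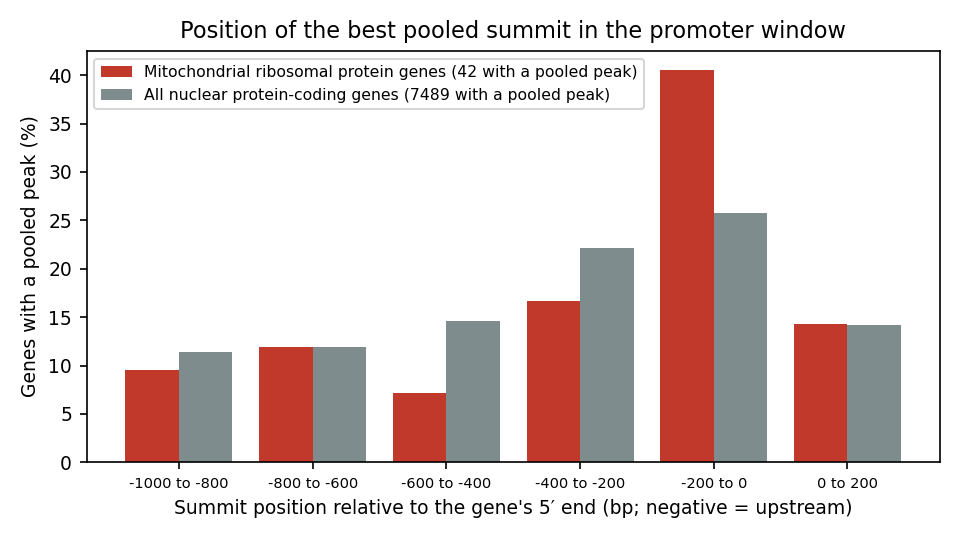
Position of the best pooled summit relative to the gene's 5′ end (horizontal axis, bp, negative upstream, 200 bp classes) as a share of the genes with a pooled peak (%, vertical axis), for 42 mitochondrial ribosomal protein genes (red) and all 7489 genes (grey). The class just upstream of the 5′ end holds 40.5% of the members and 25.8% of all genes, and the class just downstream 14.3% and 14.2%.

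The genes are packed tightly, which limits how far a summit can be given to a single gene. A same-strand gene ended within 1000 bp upstream, as the nearer neighbour, of 32 of the 70 members (45.7%), against 28.5% of all genes. A gene on the other strand began within that distance, as the nearer neighbour, at 26 members (37.1%), against 17.5%. Neither was so at 12 members (17.1%), against 54.0%. The best pooled summit also lay in the window of another protein-coding gene at 19 of the 42 members (45.2%), against 27.2% of all genes with one.

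The higher share of members with a pooled summit appeared in each of these arrangements. With a divergent neighbour it was 61.5% of the members (16 of 26), against 47.0% of all such genes. With a same-strand neighbour it was 53.1% (17 of 32), against 35.1%. With neither it was 75.0% (9 of 12), against 35.7%. Among autosomal genes alone, 36.9% had a pooled and 2.49% an IDR summit, close to the values over all chromosomes. By chromosome, a pooled summit was found at 9 of 15 members on I, against 41.4% of all genes there, and at 6 of 12 on II, against 35.8%. It was found at 15 of 22 on III, against 45.0%, at 8 of 11 on IV, against 35.0%, and at 4 of 10 on V, against 32.2%.

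The fixed motifs were counted around the members' summits. In the 41 different windows of 101 bases around their best pooled summits, GAGAGAG occurred in 1 (2.44%), at mrpl-40, against 4.94% of the 6480 such windows of all genes and 13.8% of the 802 nuclear IDR summits. The E-box CACGTG occurred in 2 (4.88%), at mrpl-44 and mrps-27, against 2.59% and 6.11%. A GATA word occurred in 8 (19.5%), against 23.3% and 20.2%. None of the 8 printed windows held GAGAGAG or CACGTG, and the GATA word of mrpl-55, TTATCT on its strand, began 50 bp before the summit. The absence of these letters says nothing about binding of a factor.

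The 2 words chosen from the windows were counted in the same way, without a test because they were picked from these sequences. The word ATACTCCGAAAT, 12 letters long, stood in the windows of mrps-7 and mrps-31 (4.88% of 41). It stood in 0.0309% of the windows of all genes, which were these same 2 among 6480. In promoters of 300 bases, from 250 bp before to 50 bp after the 5′ end, it was in 2 of the 70 members (2.86%) and in 0.025% of all 19973 genes (5). GCGCTCC stood in 4 of the 41 windows (9.76%), in 1.59% of those of all genes and in 3.24% of the 802 nuclear IDR summits. It was in 7 of the 70 member promoters and 1.96% of all promoters. Its carriers were mrpl-49, mrpl-45, mrps-9 and the summit shared by mrps-24 and mrpl-1. Mean GC content was 39.9% in the members' summit windows and 39.0% in those of all genes.

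The fixed motifs were also counted in the 300-base promoters. GAGAGAG was in 6 of the 70 (8.57%), against 6.79% of all promoters. CACGTG was in 5 (7.14%), against 5.84%, and a GATA word in 35 of 70, against 54.6%.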

How the data were processed

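EGL-27 ChIP-seq was measured in 4 replicates of 1 group. The deposited README texts state that peaks and background were called for every replicate against 1 shared control alignment, and once more on the pooled replicates, as input to the IDR step. Sources used here do not name the aligner, the peak caller or the IDR limit. The score deposited by the authors for a peak has no stated scale, so it was used for ranks inside a list and nothing else. The ce11 lists were used with Ensembl release 115 gene models (WBcel235, the same assembly), and 0 lists had a peak past a chromosome end. The ce10 lists were not used here.

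Summits, windows, nearest 5′ ends, neighbours within 1000 bp and motifs were computed in Python 3.11.15 with pandas 2.3.3 and numpy 2.4.6. Window counts were tested on simulated data, in which all 200 planted summits were recovered in each of 5 draws over 19973 genes. Members and lists were chosen with earlier results of these data known. The genes described singly were members with an IDR summit, those with a top peak in 2 or more replicates, the 6 of lowest pooled rank without an IDR summit, and up to 5 of lowest rank in each other list. Other genes given with values were singled out after those were seen. No significance test was made: there was 1 group, and genes are not replicates. Read numbers are unknown, so no interval for depth is given. The replicates are biological per the labels.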

Additional observations from a re-analysis of the deposited data

How the results depend on the processing

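The counts of pooled and full-list peaks kept within 1.5 times or within 1 SD of their values under every alternative run: members with a pooled summit ranged from 33 with a window of 500 bp upstream to 100 bp downstream (47.1%, against 25.6% of all genes) to 52 with one of 2000 bp to 500 bp (74.3%, against 54.2%). The small counts moved. Members with an IDR summit, 3 in the report, numbered 1 with the narrow window (1.43%, against 1.98% of all genes). They numbered 0 with the stronger 50% of the IDR peaks, so no distance could be given there. They numbered 4 with the wide window (5.71%, against 3.65% of all genes), 4 with any overlap of the peak interval and 2 with the nearest 5′ end alone. Members with a pooled summit numbered 34 with the nearest 5′ end alone. For the overlap and nearest-end settings no share of all genes is given. Whether the members' excess holds when each summit goes to 1 gene is therefore not known. The median distance of the IDR summits, 953 bp over 3 genes, was 186 bp with the narrow window and 569.5 bp with each summit given to the nearest 5′ end. The mean of members with a top peak was 3.75 with 200% as many top peaks, 0 with 50% as many, 0.5 with the narrow window, 0.75 with the nearest 5′ end alone, and 2.25 both with the wide window and with any overlap, against 1.25 in the report. Members with a top peak in 2 or more replicates, 1 in the report, numbered 0 with the narrow window, with the nearest 5′ end alone and with 50% as many top peaks, 2 with the wide window and with any overlap of the peak interval, and 6 with 200% as many top peaks. The window and list-size settings change the bases or peaks counted by construction, and for the nearest 5′ end and the overlap settings the cause was not tested. No share of all genes is given for the top-peak counts under these settings, so their moves are not read as results about the members. Leaving out each replicate gave 0 to 1 for that count (0 without replicate 1 or 3, whose peaks at mrpl-12 make it up), 0.6667 to 1.667 for the mean of top peaks, 22 to 32.67 for the mean of full-list peaks and 0 for top peaks in all replicates. The IDR and pooled lists cannot be rebuilt without a replicate. No paired analysis was possible because there was 1 group. Unknown read depth and the shared control limit the comparison of lists.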
